A study of Mus musculus with 18 samples.

Results

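The knockout effect shared by liver and brain was taken from a single model of 12 RNA-seq libraries, which gave each gene 1 genotype term common to both tissues. The 12 libraries were chosen by tissue from 18 in the series: 3 wild-type (WT) and 3 Pcgf6 knockout (KO) libraries of liver, and 3 WT and 3 KO libraries of brain. The other 6 libraries, from testis, entered no shared test and served only as a reference for expression levels. All mice were adult males of the strain C57BL/6, aged 8 weeks, and carried either no listed modification (WT) or the Pcgf6 knockout (KO), with no treatment named for any group. The design of the knockout allele is not given in the sources used here. Nor is it given whether the 3 libraries of a group came from separate animals, so p-values measure only the spread between these libraries. In the shared term that spread includes any difference of the genotype effect between liver and brain. Libraries are named by the numbers in their titles, which run from 1 to 3 for WT and from 4 to 6 for KO.

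Pcgf6 is a polycomb group RING finger protein that defines the variant polycomb repressive complex PRC1.6. In this complex MGA and MAX bind E-box and T-box DNA, E2F6 binds E2F sites, and RING1 or RNF2 mono-ubiquitinate histone H2A, which keeps many germ cell genes silent in embryonic stem cells and somatic cells. Germ cell genes include those of the piRNA pathway, which silences transposons, and those of the synaptonemal complex, which joins homologous chromosomes in meiosis.

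A gene was tested when at least 10 recovered reads were present in at least 3 libraries of each tissue, which held for 12922 of 52636 genes; 1202 further genes passed in liver only and 5000 in brain only. Levels are in FPKM, that is, fragments per kilobase of a gene divided by a size assigned to the library. Log2 fold changes are KO minus WT on log2(FPKM + 0.1), which understates the change of low genes, and are given with their standard error (SE). A gene is said to have risen or fallen at a limma p under 0.05 after Benjamini-Hochberg adjustment over all genes tested. Of the 12922 genes, 8 rose (0.0619%) and 3 fell (0.0232%). Those that rose were Mael and Ddx4 of the piRNA pathway, the meiotic gene Syce1, the germ cell ADP/ATP carrier Slc25a31, and 4 X-linked genes: Xlr4b, Xlr4c, Gm4779 and 8030474K03Rik. Those that fell were Rps4l, Ide and Fgfbp3.

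The sequences before the starts of 6 of the 8 genes that rose are shown because they hold the motifs that PRC1.6 subunits bind, or because they are shared between genes that moved together. They were taken from RefSeq (GRCm38.p6) and lie before the RefSeq start; the 2 Ddx4 stretches of 30 bases, the last 16 bases of Slc25a31 and the last 3 of Mael lie in an exon of the GENCODE annotation. All are read 5′ to 3′ on the strand of the gene. Capitals mark CACGTG, the E-box bound by MAX and MGA, at chr1:166238745-166238994 (minus strand, Mael), at chr3:40708621-40708870 (plus strand, Slc25a31) and at chr13:112652322-112652351 (minus strand, Ddx4), and GCGGGAA, the core of an E2F site, at chr13:112652428-112652457 (minus strand, Ddx4).
Mael: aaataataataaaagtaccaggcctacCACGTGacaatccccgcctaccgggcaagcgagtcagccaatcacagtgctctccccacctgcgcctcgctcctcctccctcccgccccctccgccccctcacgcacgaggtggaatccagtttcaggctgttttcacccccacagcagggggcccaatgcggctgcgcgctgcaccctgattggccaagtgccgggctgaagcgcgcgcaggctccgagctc
Slc25a31: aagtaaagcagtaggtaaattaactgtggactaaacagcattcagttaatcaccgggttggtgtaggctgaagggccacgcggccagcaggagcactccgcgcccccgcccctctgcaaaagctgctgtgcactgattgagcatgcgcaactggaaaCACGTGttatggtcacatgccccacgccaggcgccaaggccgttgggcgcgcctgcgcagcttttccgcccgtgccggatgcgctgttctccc
Ddx4 around CACGTG: ggcgtccgcccgCACGTGcagccgtttaag
Ddx4 around GCGGGAA: ccgtccatgggGCGGGAAgtcgcgcgccgc
The E-box began 223 bases before the start of Mael, 93 before that of Slc25a31 and 29 before that of Ddx4, and the E2F core began 136 bases before that of Ddx4.

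All 8 genes that rose matched a promoter window of 300 bases, 250 before the start and 50 from it on. These are not 8 separate sequences. The windows of Gm4779 and 8030474K03Rik share 290 bases, and those of Xlr4b and Xlr4c differ at 2 of 227 aligned bases. CACGTG, which reads the same on both strands, occurred in 3 of the 8 windows and in 7.15% of all 32851 windows in the table. GCGGGAA or its reverse complement TTCCCGC occurred in 2 of the 8, Ddx4 and Slc25a31, where it began at base 20 of the transcript, and in 4.6% of all windows. The T-box core AGGTGTGA or its reverse complement TCACACCT occurred in 0 of the 8 and in 1.28% of all windows. CACGTG can share its last base with GCGGGAA, but no motif found in the 8 windows overlapped another. None of the 3 was found in the windows of Xlr4b, Xlr4c, Syce1, Gm4779 or 8030474K03Rik, which says only that these letters are not in those windows. Of the genes that fell, Ide and Fgfbp3 had a window and neither held a motif. The 250 bases before the start used for Ide, chr19:37334545-37334794 (minus strand), lie inside the annotated gene, which reaches to 37337852. The window of Ide therefore does not describe the sequence at its annotated 5′ end.

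The X-linked genes that rose form 2 neighbouring pairs. Xlr4b and Xlr4c lie 11.2 kb apart, and their upstream sequences at chrX:73214083-73214309 (plus strand) and chrX:73243131-73243357 (minus strand) differed at 2 of 227 aligned bases, marked here in capitals. The aligned part of Xlr4b stops 23 bases short of its start.
Xlr4b: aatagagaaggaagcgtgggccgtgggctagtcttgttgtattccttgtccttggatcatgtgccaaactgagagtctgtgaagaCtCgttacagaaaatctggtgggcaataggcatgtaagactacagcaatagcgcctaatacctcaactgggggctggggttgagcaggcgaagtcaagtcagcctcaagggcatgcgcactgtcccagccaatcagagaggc
Xlr4c: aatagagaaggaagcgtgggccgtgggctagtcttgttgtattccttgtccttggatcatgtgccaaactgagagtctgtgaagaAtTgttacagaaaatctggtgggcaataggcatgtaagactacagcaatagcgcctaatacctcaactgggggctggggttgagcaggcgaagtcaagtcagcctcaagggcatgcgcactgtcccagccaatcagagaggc
Gm4779 and 8030474K03Rik are transcribed away from each other, so a single stretch of 210 bases between their RefSeq starts, chrX:101794446-101794655, precedes both. It is printed on the strand of 8030474K03Rik with each CG dinucleotide in capitals.
Gm4779 and 8030474K03Rik: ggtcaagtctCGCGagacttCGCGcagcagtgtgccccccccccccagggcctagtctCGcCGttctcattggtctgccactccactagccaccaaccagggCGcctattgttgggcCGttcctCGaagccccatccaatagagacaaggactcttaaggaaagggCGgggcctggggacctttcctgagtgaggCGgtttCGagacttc
This stretch holds 12 CG dinucleotides. Over the full window of 300 bases the count was 22 for Slc25a31, Gm4779 and 8030474K03Rik, 24 for Mael, 38 for Ddx4, 14 for Syce1, 8 for Xlr4b and 7 for Xlr4c. The median over all windows was 7, with quartiles of 3 and 20.

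Pcgf6 itself was lower in every KO library than in every WT library of its tissue, and reads of the gene remained in KO. Pcgf6 (ENSMUSG00000025050, mm10 chr19:47033619-47050845) measured 4.99, 4.08 and 5.66 FPKM in WT liver and 2.66, 1.66 and 1.44 in KO liver. In brain it measured 4.58, 5.18 and 5.29 FPKM in WT and 3.30, 4.20 and 4.42 in KO. The decrease was thus clear of overlap in both tissues and smaller in brain. The shared log2 fold change of Pcgf6 was -0.84 ± 0.20 (SE; 6 WT and 6 KO libraries), with an unadjusted limma p of 0.00108. Its adjusted p was 0.488, so the targeted gene did not pass the threshold used for the others. The unequal decrease in the 2 tissues is part of this SE. With a genotype by tissue term in the model, the mean of the 2 tissue effects had an SE of 0.144 (limma adjusted p 0.0621). An exact two-sided permutation test within tissues, over 400 assignments, gave p = 0.005, the smallest it can give. It moved the genotype labels of liver and brain separately, which assumes that the 2 tissues came from different mice. The labels do not say whether they did, and with shared mice fewer assignments and a larger smallest p would apply. Fewer expressing cells and less RNA per cell cannot be told apart in these bulk samples. Because the tables hold 1 value per gene, they do not show which exons the remaining KO reads cover.

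Depth lay between 18990130 and 23529098 recovered reads per library, and mitochondrial genes took 5.23 to 5.75% of reads in liver and 3.85 to 4.32% in brain. The summed level of 10 hepatocyte markers was at least 77300 FPKM in each liver library and at most 20.6 in brain, and that of 10 neuron markers was at least 1440 in each brain library and at most 3.61 in liver, as the tissue labels say. In brain, WT 3 with 20.6 FPKM and KO 5 and 6 with 10.2 and 12.1 FPKM carried more hepatocyte transcripts than the other 3 brain libraries, at 1.59 to 2.89. Without these 3 libraries, which leaves 1 KO library in brain, 5 genes rose and 2 fell. The 4 calls lost were 8030474K03Rik (adjusted p 0.149), Xlr4c (0.186), Gm4779 (0.314) and Fgfbp3 (0.465), with log2 fold changes of 4.23, 2.57, 5.01 and -0.80.

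**Figure D1:**
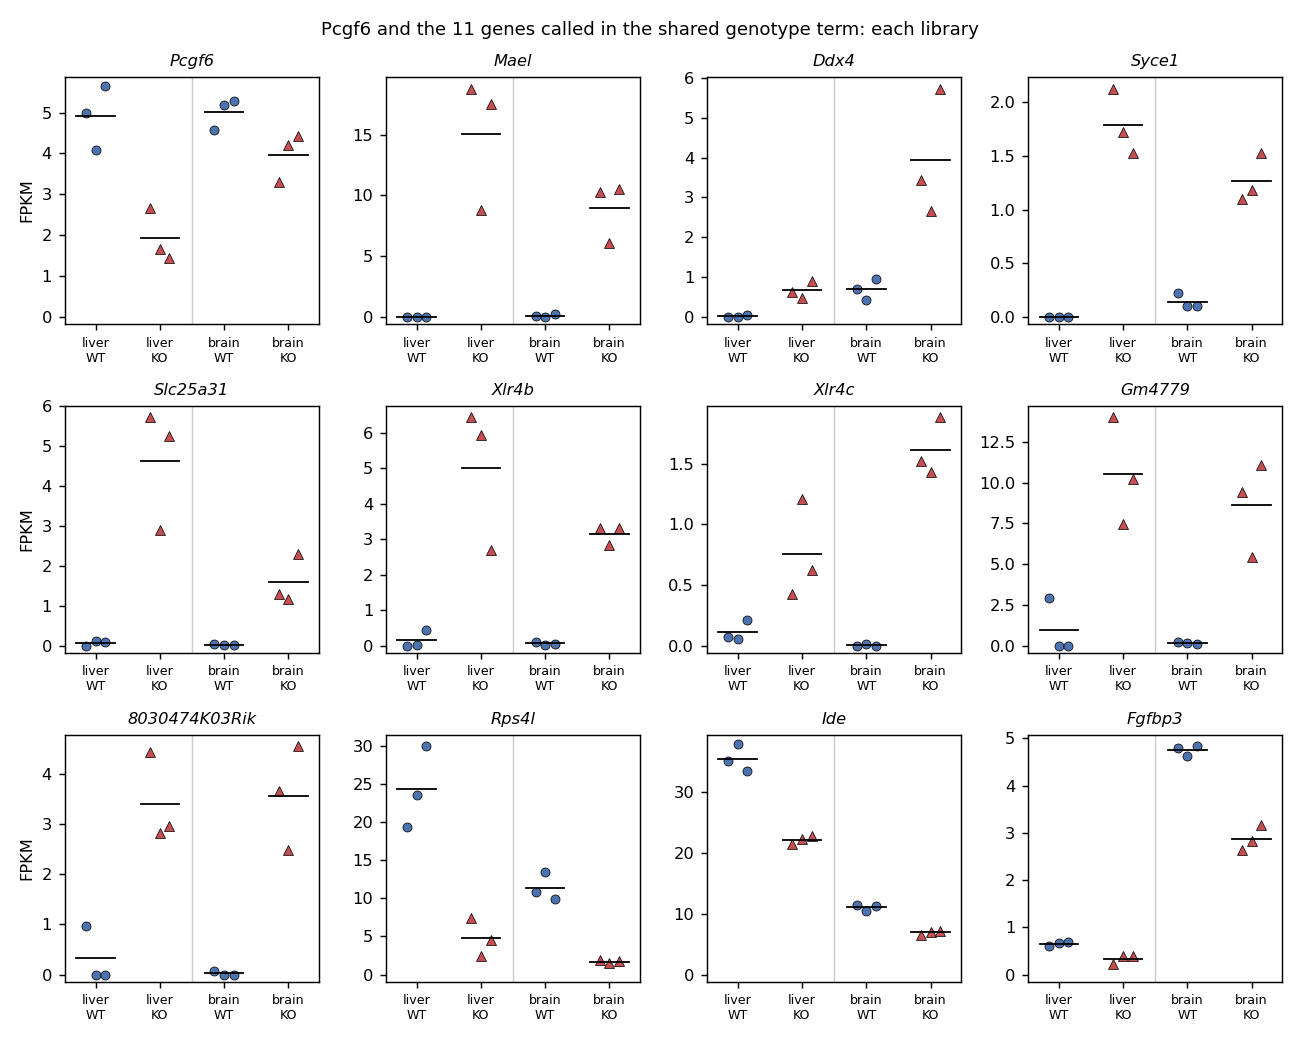
FPKM of Pcgf6 and the 11 genes that rose or fell, in each of the 12 libraries (circles WT, triangles KO, horizontal lines the mean of 3 libraries; each panel has its own linear axis from 0). In all 12 panels the KO libraries of a tissue lie wholly above or wholly below its WT libraries, and WT liver 1 stands apart from WT liver 2 and 3 in Gm4779 and 8030474K03Rik.

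Mael (ENSMUSG00000040629, chr1:166201201-166238747) encodes maelstrom, a nuage protein required for piRNA-guided transposon silencing in male germ cells. It had no read in the 3 WT liver libraries and measured 18.8, 8.82 and 17.5 FPKM in KO liver. In brain it measured 0.0624, 0 and 0.211 FPKM in WT and 10.3, 6.11 and 10.5 in KO. KO liver 5 and KO brain 5 were the lowest KO libraries of their tissues, yet each was far above every WT library. Against a floor of 3 reads per library, KO liver was at least 125-fold higher, and in brain the ratio of means was 98.7. The shared log2 fold change was 6.43 ± 0.34 (SE), with a limma adjusted p of 1.94e-06, the smallest of all genes tested. Mael in KO reached 1.69% of its WT testis level in liver and 1.85% in brain, with all libraries scaled to their total reads.

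Ddx4 (ENSMUSG00000021758, chr13:112598333-112652475) encodes the germ cell RNA helicase VASA. WT liver held 0, 0 and 0.0445 FPKM, a total of 2 reads, and KO liver 0.634, 0.471 and 0.897 FPKM, a total of 81 reads. The ratio of reads, corrected for depth, was 41.8 with an exact (Clopper-Pearson) 95% interval of 11.2 to 351 that covers counting error only. Brain differed in that WT libraries already held the transcript: 0.693, 0.416 and 0.948 FPKM in WT against 3.44, 2.65 and 5.74 in KO, a ratio of means of 5.75. The groups did not overlap in either tissue. For Ddx4 the shared log2 fold change was 2.54 ± 0.23, limma adjusted p 1.76e-04. It was the 1 gene of the 11 that neither tissue called alone, with adjusted p of 0.0694 in liver and 0.117 in brain.

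Syce1 (ENSMUSG00000025480, chr7:140777229-140787852) encodes a protein of the central element of the synaptonemal complex. It had no read in WT liver and measured 2.13, 1.72 and 1.53 FPKM in KO liver, at least 12.6-fold over the floor of 3 reads per library. Brain held 0.222, 0.101 and 0.1 FPKM in WT and 1.10, 1.18 and 1.53 in KO, 8.99-fold between means. KO libraries ran from 1.53 to 2.13 FPKM in liver and from 1.10 to 1.53 in brain, and none overlapped WT of its tissue. In the shared term Syce1 changed by 3.38 ± 0.28 (log2), limma adjusted p 7.55e-05.

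Slc25a31 (ENSMUSG00000069041, chr3:40708855-40726096) encodes the ADP/ATP carrier that takes the place of the somatic carriers in the mitochondria of male germ cells. It measured 0, 0.123 and 0.0946 FPKM in WT liver and 5.72, 2.91 and 5.26 in KO liver. Brain held 0.0508, 0.0173 and 0.0172 FPKM in WT and 1.30, 1.17 and 2.29 in KO. WT totals were 7 reads in liver and 5 in brain, so the ratios of means, 63.9 and 55.8, rest on few WT reads. Slc25a31 had a shared log2 fold change of 4.23 ± 0.29, limma adjusted p 1.83e-05. KO levels were 8.93% of WT testis in liver and 5.6% in brain.

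Xlr4b and Xlr4c belong to the Xlr family of X-linked lymphocyte-regulated genes, whose members include meiotic chromatin proteins. Xlr4b (chrX:73214333-73222453) measured 0, 0.0255 and 0.446 FPKM in WT liver, 6.44, 5.95 and 2.69 in KO liver, 0.113, 0.0144 and 0.0572 in WT brain and 3.33, 2.84 and 3.32 in KO brain. Xlr4c (chrX:73233688-73243130) measured 0.0675, 0.0586 and 0.210 FPKM in WT liver, 0.428, 1.21 and 0.623 in KO liver, 0, 0.0165 and 0 in WT brain and 1.52, 1.43 and 1.88 in KO brain. WT liver 3 was the highest WT library for both genes and still lay below every KO liver library. Shared log2 fold changes were 4.52 ± 0.37 for Xlr4b (limma adjusted p 7.55e-05) and 3.00 ± 0.37 for Xlr4c (0.00347). The Xlr4c call was lost with a replicate block on the order within genotype and tissue (limma adjusted p 0.0583). WT brain held 1 read of Xlr4c and KO brain 285; the depth-corrected ratio was 295 (exact 95% interval 52.5 to 11700). These genes are near-identical copies, so reads could be divided among them or lost, and the split between members is uncertain.

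The next members of the family did not pass. Xlr4a measured 3.14, 0 and 0.700 FPKM in WT liver and 7.63, 5.08 and 7.25 in KO liver, with 0.540, 0.0240 and 0.0477 in WT brain and 2.45, 3.02 and 3.07 in KO brain. Its groups did not overlap in either tissue, and its shared log2 fold change was 3.54 ± 0.67 at a limma adjusted p of 0.146. Without WT liver 1, which held 64 of the 80 WT liver reads of Xlr4a, the adjusted p was 0.00916. Of the 25 alternatives 5 called Xlr4a, among them a pseudocount of 1 (0.0158) and voom (0.0343), and 4 called Xlr3b, among them voom (0.00238). Xlr3b, with a shared log2 fold change of 1.58 ± 0.32 (limma adjusted p 0.214), had fitted values of 2.08 in brain and 1.08 in liver, and its liver groups overlapped. Xlr3a gave 1.03 ± 0.27 (limma adjusted p 0.769). Both Xlr3a and Xlr3b were called without WT liver 3, at 0.0367 and 0.0214.

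Gm4779 (chrX:101790053-101794423) and 8030474K03Rik (chrX:101794656-101798642), 232 bases apart on opposite strands, had the same order of libraries in WT liver. Gm4779 measured 2.90, 0 and 0 FPKM in WT liver and 14.0, 7.48 and 10.2 in KO liver, with 0.244, 0.187 and 0.124 in WT brain and 9.40, 5.44 and 11.1 in KO brain. 8030474K03Rik measured 0.978, 0 and 0 FPKM in WT liver and 4.45, 2.83 and 2.97 in KO liver, with 0.0719, 0 and 0 in WT brain and 3.66, 2.49 and 4.56 in KO brain. WT liver 1 held 91 reads of the first and 26 of the second where the other 2 WT livers held none. In KO liver both genes were highest in KO 4, and in KO brain both were highest in KO 6 and lowest in KO 5. Shared log2 fold changes were 4.98 ± 0.68 for Gm4779 (limma adjusted p 0.0102) and 4.43 ± 0.51 for 8030474K03Rik (0.00207). Gm4779 was not called with a pseudocount of 0.01 (0.123) or with no filter (0.0634). Relative to WT testis, KO libraries reached 78.8% in liver and 118% in brain for Gm4779 and 34.0% and 65.2% for 8030474K03Rik. For Xlr4b these shares were 396% and 458%, so by this measure the gene was higher in both KO somatic tissues than in testis.

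The 4 genes called on the X chromosome were 4 of the 8 that rose, while 400 of the 12922 genes tested, 3.10%, lie there. These 4 are the neighbouring pairs described above and not separate loci. The other 4 lie on chromosomes 1, 3, 7 and 13.

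**Figure D2:**
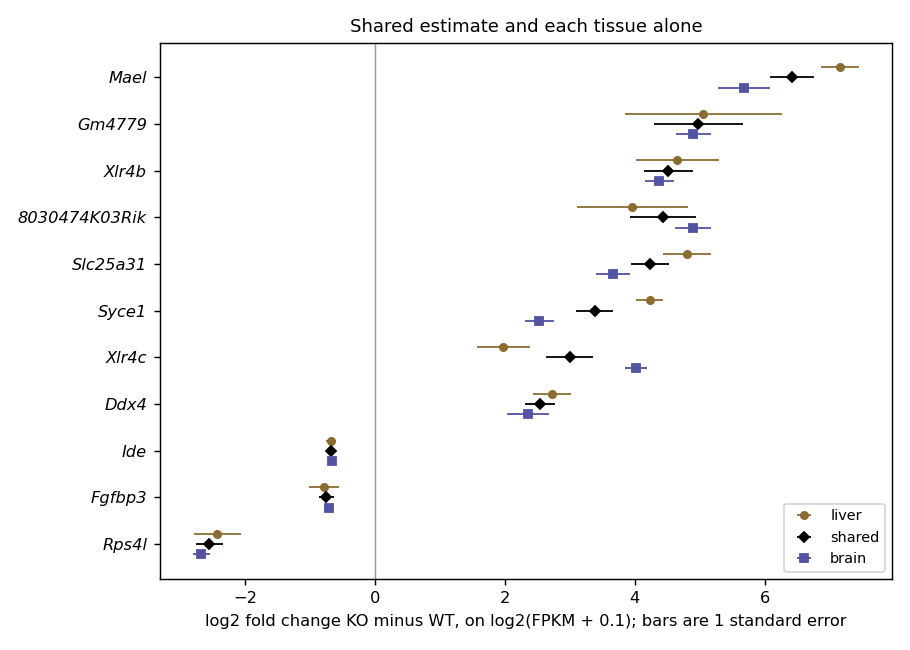
Log2 fold change, KO minus WT, of the 11 genes that rose or fell: the shared estimate (diamonds), liver alone (circles) and brain alone (squares), with bars of 1 SE. The 8 higher genes lie between 2.54 and 6.43 and the 3 lower genes between -2.55 and -0.67 in the shared estimate, and the liver estimate of Gm4779 has the widest bar (1.21).

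Rps4l (ENSMUSG00000063171, chr6:148354656-148355598), annotated as a transcribed processed pseudogene of the ribosomal protein gene family Rps4, fell most. It measured 19.4, 23.5 and 30 FPKM in WT liver and 7.43, 2.46 and 4.5 in KO liver. Brain held 10.8, 13.5 and 9.94 FPKM in WT and 1.87, 1.48 and 1.73 in KO. KO retained 19.7% of the WT mean in liver and 14.8% in brain, with a shared log2 fold change of -2.55 ± 0.21 (limma adjusted p 7.55e-05). In testis the KO mean was 85.2% of WT, a log2 fold change of -0.18 (limma adjusted p 0.879). Reads of a processed pseudogene can be shared with its parent gene, so its level is uncertain.

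Ide (ENSMUSG00000056999, chr19:37268743-37337852) encodes insulin-degrading enzyme, a protease of insulin and amyloid beta. It measured 35.1, 37.8 and 33.5 FPKM in WT liver and 21.5, 22.2 and 22.7 in KO liver. Brain held 11.5, 10.4 and 11.2 FPKM in WT and 6.56, 7.02 and 7.16 in KO. KO kept nearly the same share of WT in each tissue, 62.4% and 62.6%, with little spread between libraries. The shared log2 fold change was -0.67 ± 0.05 (limma adjusted p 1.83e-05), and the brain minus liver difference was 0.01 with a 95% interval of -0.21 to 0.22. In testis Ide stood at 79.1% of WT (log2 fold change -0.33, limma adjusted p 0.871).

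Fgfbp3 (ENSMUSG00000047632, chr19:36917550-36919615) encodes a secreted protein that binds fibroblast growth factors. It measured 0.596, 0.664 and 0.682 FPKM in WT liver and 0.225, 0.400 and 0.392 in KO liver, and 4.80, 4.62 and 4.84 in WT brain and 2.64, 2.82 and 3.16 in KO brain. Groups did not overlap, but liver rested on 50 WT and 25 KO reads. The shared log2 fold change was -0.75 ± 0.11 (limma adjusted p 0.0207), the weakest of the 11 calls: it was lost in 10 of 24 alternatives. Leaving out WT liver 2 or 3, any WT brain library, or KO brain 4 or 5 each gave an adjusted p between 0.0604 and 0.0885. Testis held 40.1% of WT (log2 fold change -1.10, limma adjusted p 0.871).

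Ide and Fgfbp3 lie on the chromosome of Pcgf6, 9.70 and 10.1 Mb from it, and 349 kb from each other. None of the 3 tested genes between them passed, and their shared log2 fold changes ran from -0.32 to 0.09. The lowest was that of Btaf1, a TATA-binding protein regulator, at -0.32 ± 0.09 (limma adjusted p 0.945), with a fitted change of -0.48 in brain and -0.16 in liver. Within 2 Mb of Pcgf6, 0 of 41 other tested genes were called, and 2 had an unadjusted limma p under 0.05: Gsto1, a glutathione transferase (0.15 ± 0.05), and Gm6807 (0.44 ± 0.17). This share of 4.88% stands beside 4.39% of all genes tested. Within 10 Mb 1 of 131 was called, Ide, and 7 had such a p (5.34%). Within 15 Mb 2 of 179 were called, Ide and Fgfbp3, and 12 had such a p (6.7%).

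WT and KO libraries did not overlap in either tissue, in the same direction, for 42 genes that were higher (0.325%) and 33 that were lower (0.255%). The 11 called genes were among them. Of the 400 assignments of labels within tissues, a share of 0.005 keeps a gene without ties apart in this way, both directions together. Lack of overlap is therefore given as a description and is not a call. Separately fitted on the same 12922 genes, liver called 3 genes (0.0232%), Mael, Slc25a31 and Syce1, and brain called 10 (0.0774%), and all of these belonged to the 11. The difference of the genotype effect between brain and liver was called for 0 genes by limma, with 625 genes at an unadjusted p under 0.05 and a smallest adjusted p of 0.160. Voom, which weights log counts by their precision, also called 0, and limma with a pseudocount of 1 called 1 gene, C1qtnf4. A missing call does not show that effects were equal. Among the 11, Syce1 had a brain minus liver difference of -1.70 (95% interval -2.37 to -1.03, adjusted p 0.237) and Xlr4c one of 2.04 (1.01 to 3.07, adjusted p 0.401). Those of Mael (-1.48, -2.69 to -0.26) and Slc25a31 (-1.13, -2.22 to -0.04) had intervals clear of 0 but adjusted p of 0.948 and 1.00. FPKM is scaled differently in liver and brain, so the added 0.1 stands for fewer reads in liver. Its part in the differences of Syce1, Xlr4c, Mael, Slc25a31 and Ddx4 was not tested. On this scale the interval was -1.20 to 0.71 for Rps4l, -1.41 to 0.66 for Ddx4, -1.97 to 1.42 for Xlr4b and -3.27 to 2.97 for Gm4779. Differences of that size could not be seen. The interval of Ddx4 does not bound its difference without the added 0.1. Its ratios of means were 44.9 in liver, on 2 WT reads, and 5.75 in brain.

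**Figure D3:**
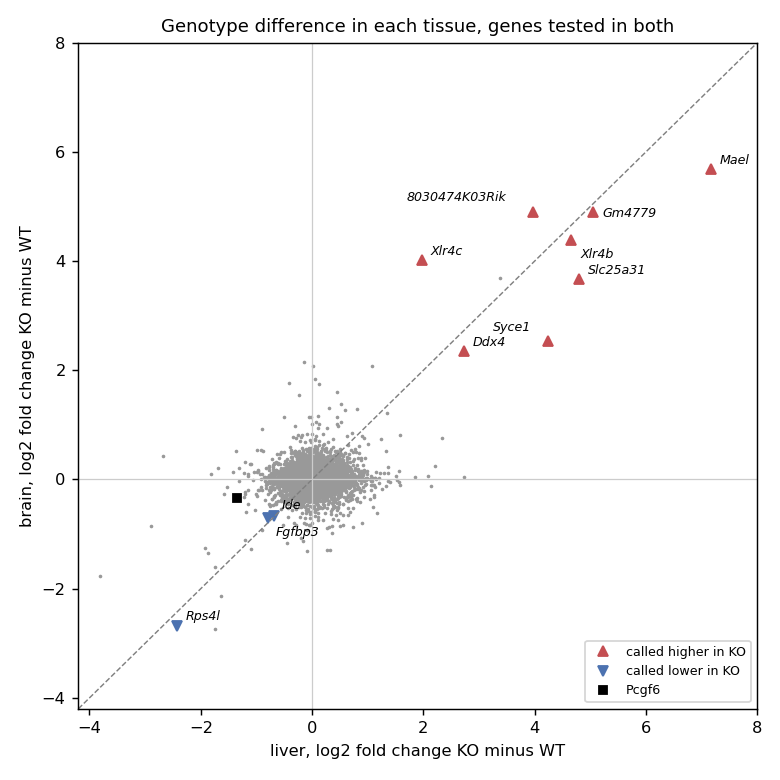
Log2 fold change, KO minus WT, in liver (horizontal) and brain (vertical) for the 12922 genes tested in both tissues; the dashed line marks equal change. The 8 higher genes lie well outside the cloud of other genes centred on 0, Rps4l lies below it, and Ide and Fgfbp3 lie at its edge; the grey point near Slc25a31 and Xlr4c is Xlr4a, and Pcgf6 lies at -1.35 in liver and -0.34 in brain.

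Outside these genes the liver and brain values were hardly related. Across the 12922 genes, which are not independent replicates, the Pearson correlation of the liver and brain log2 fold changes was 0.305 with the 11 genes and 0.111 without them, and Spearman's rho was 0.000802. Liver and brain changes had the same sign in 48.8% of genes. The shared log2 fold change had a median of 0.00274, and 51.3% of genes were higher in KO. An unadjusted limma p under 0.05 was reached by 567 genes, 4.39%.

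Germ cell genes were then followed in 4 lists: known or proposed PRC1.6 germline targets, the piRNA pathway, meiotic chromosome and recombination genes, and germ cell RNA-binding proteins. Together they hold 84 genes of the files, of which 27 passed the read filter in liver, 56 in brain and 23 in both, so 61 were not tested. Of the 23, 4 rose (Mael, Ddx4, Syce1 and Slc25a31) and 0 fell, beside 0.0619% up and 0.0232% down among all genes tested, and the rest were not called. The filter favours such a result: of all genes tested, 25 had no WT library with 10 reads in at least 1 tissue, and these 25, which hold 7 of the 8 genes that rose, could be tested only through their KO libraries. The median shared log2 fold change of the 23 was 0.285 and is given as a description of genes that passed in this way.

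Of 26 listed PRC1.6 germline targets 8 were tested and 4 rose. This list was chosen with earlier results of these data known, so the share is a description and no test. The members that were tested and not called were Tdrkh, a mitochondrial Tudor protein of piRNA trimming (0.53 ± 0.16, limma adjusted p 0.945; 0.93 in liver and 0.13 in brain), Gpat2, a mitochondrial protein of piRNA biogenesis (1.01 ± 0.38), Zcwpw1 (0.22 ± 0.18) and Sycp3 (-0.28 ± 0.27). Gpat2 differed most between the tissues among them. It measured 1.06, 1.29 and 1.33 FPKM in WT liver and 1.09, 1.25 and 0.970 in KO liver, with overlapping groups. In brain it measured 0.0822, 0.196 and 0.362 FPKM in WT and 1.01, 1.36 and 1.29 in KO, with no overlap. The brain minus liver difference was 2.30, with a limma adjusted p of 0.236.

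Of 24 piRNA pathway genes 8 were tested, and Mael and Ddx4 rose. Tdrd7 (-0.05 ± 0.07), Exd1 (-0.09 ± 0.13), Pld6 (0.07 ± 0.22) and Pnldc1 (0.05 ± 0.32) had SEs larger than or close to their estimates. Among meiotic genes 11 of 35 were tested and Syce1 rose. Syce2, another central element protein, gave 0.42 ± 0.14 (limma adjusted p 0.998), with 0.39 in liver and 0.46 in brain, and Rec8, the meiotic cohesin subunit, gave 0.95 ± 0.39, with 0.53 in liver and 1.38 in brain. Among germ cell RNA-binding proteins 3 of 18 were tested: besides Ddx4, Cpeb1 gave 0.48 ± 0.17 and Dnd1, a regulator of germ cell survival, 0.46 ± 0.23, and neither passed.

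Some listed genes that the filter left out of the shared test also had more reads in KO. The following 4 were chosen after their values were seen and lie outside the 12922 genes tested. Rbm46, which encodes a germ cell RNA-binding protein needed for meiosis, had 1, 3 and 3 reads in WT liver, 8, 24 and 23 in KO liver, 15, 10 and 12 in WT brain and 44, 72 and 61 in KO brain. Tex11, an X-linked meiotic recombination gene, had 0 reads in each WT liver, 11, 14 and 15 in KO liver, 3, 5 and 4 in WT brain and 9, 12 and 19 in KO brain. Both thus had KO above WT in each tissue with no overlap. With no read filter, Rbm46 was tested among 34055 genes and called, with a shared log2 fold change of 1.84 (limma adjusted p 0.00933). Henmt1, the methyltransferase that caps piRNA 3′ ends, had 0 reads in 5 of 6 liver libraries and 4 in KO liver 6, against 19, 17 and 20 in WT brain and 81, 94 and 107 in KO brain. Taf7l, a germ cell TFIID subunit, had no read in any liver library, and 7, 1 and 9 reads in WT brain against 52, 20 and 73 in KO brain. Henmt1 and Taf7l were therefore higher in KO in brain, and not detectable or barely detectable in liver at this depth. Other listed targets stayed near 0 in both genotypes: Stra8 had no read in the 12 libraries, and Hormad1 had 0 and 1 reads in WT and KO liver and 1 and 1 in brain. Dazl had 215 reads in WT brain and 144 in KO brain.

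Genes used as markers of later germ cells also had reads. The 12 spermatid markers summed to 2.46 to 4.25 FPKM in WT liver, 2.72 to 13.1 in KO liver, 3.21 to 9.99 in WT brain and 4.44 to 16.7 in KO brain, against at least 22100 in testis. In WT liver 6 of the 12 had no read (Akap4, Odf1, Pgk2, Smcp, Spem1 and Tnp1), and in the other 3 groups all 12 had a read. By library, the spermatid sum was 13.0 FPKM in KO liver 5 and 13.1 in KO liver 6. In brain it was highest in WT 3, KO 5 and KO 6, at 9.99, 16.7 and 7.84 FPKM. These are the same 3 brain libraries that carried more hepatocyte transcripts. KO liver 4 held no read of the protamine genes Prm1 and Prm2 or of Tnp1, and had 18.8 FPKM of Mael, the highest of the KO livers. Its spermatid sum, with Gapdhs included, was 0.00576% of the WT testis level, and its Mael level 2.09%. The part of spermatid transcripts in the other results was not tested. Of the spermatid markers only Gapdhs passed the filter in both tissues (-0.09 ± 0.16). It had 220 reads in WT and 163 in KO liver, and 385 in WT and 408 in KO brain. Means in WT liver were 0.0954 FPKM for Prm1, 0.186 for Prm2 and 0 for Tnp1. The sums thus include a marker that was read in WT and KO alike.

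The testis libraries gave the levels of the 11 genes in bulk testis, which are not levels of germ cells alone. Testis called 1 gene of 22341 tested (0.00448%) when KO was compared with WT, and none of the 11 was called there. Mael measured 525, 533 and 506 FPKM in WT testis and 620, 509 and 546 in KO testis, and Syce1 167, 168 and 175 against 187, 166 and 171. Ratios of the KO to the WT mean in testis were 1.07 for Mael, 1.10 for Ddx4, 1.03 for Syce1, 0.963 for Slc25a31, 1.10 for Xlr4b, 1.04 for Xlr4c and 0.935 for 8030474K03Rik, and KO testis held 116% of the WT mean of Gm4779. KO liver and brain held 0.247 and 2.67% of the WT testis level of Ddx4 and 0.616 and 0.798% of that of Syce1.

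**Figure D4:**
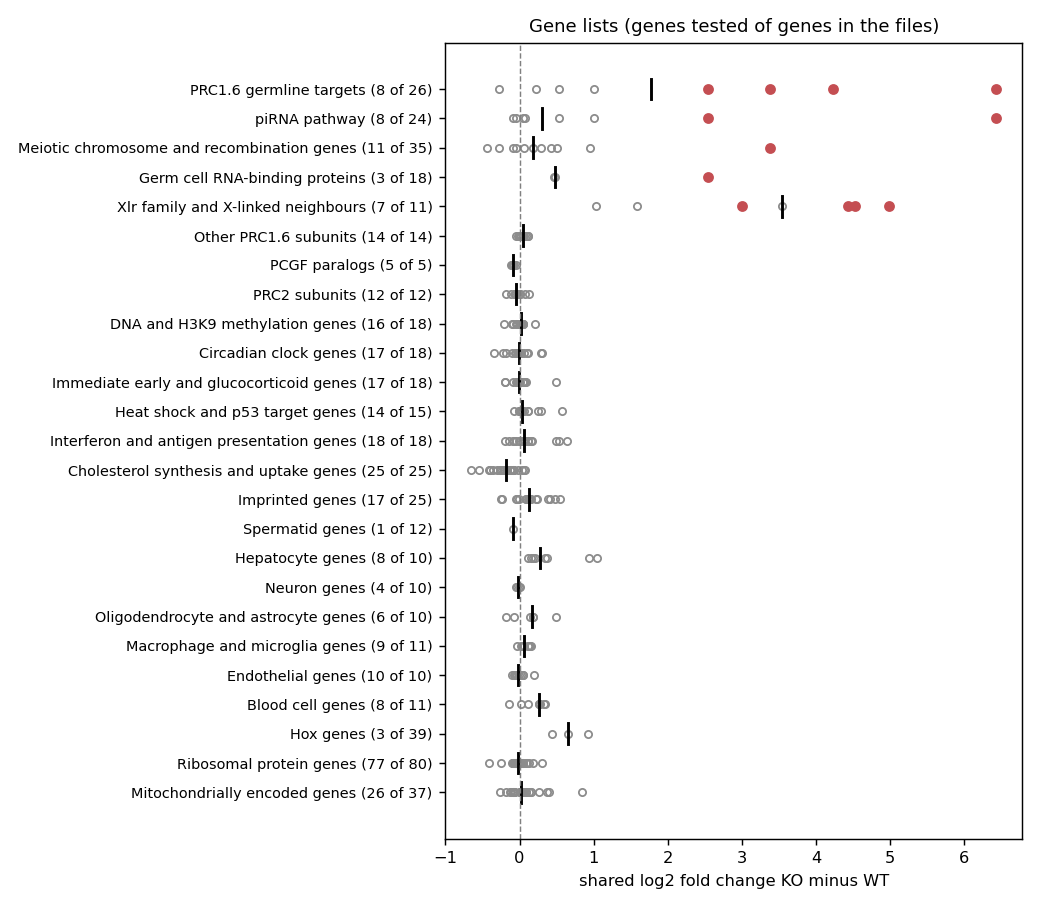
Shared log2 fold change of each tested member of 25 gene lists (open circles not called, filled circles called higher in KO, vertical bars the list median, dashed line the median of all genes tested); labels give tested genes of genes in the files. Filled circles occur in the 4 germ cell lists and the list of the Xlr family and X-linked neighbours, and in none of the other 20. The lists were chosen with earlier results of these data known, and the germ cell lists share called members, so this pattern is a description and no test.

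None of the other genes of the polycomb system was called. All 14 other PRC1.6 subunits were tested and 0 were called, with a median of 0.0435 beside 0.00274 for all genes. The smallest p among them belonged to the DNA-binding subunits Mga (0.12 ± 0.07) and Max (0.11 ± 0.08) and the reader L3mbtl2 (0.09 ± 0.07), each with an unadjusted p of 0.134 or more. The 5 PCGF paralogs were all lower in KO in both tissues by small amounts, with a median of -0.0934 and 0 called, and Bmi1 gave -0.09 ± 0.07, Pcgf2 -0.12 ± 0.09 and Pcgf3 -0.07 ± 0.06. Of 12 PRC2 subunits and accessory genes 0 were called (median -0.0416), with Jarid2 at 0.13 ± 0.08, Phf19 at -0.19 ± 0.16 and Suz12 at -0.07 ± 0.06. Of 16 tested genes of DNA and H3K9 methylation 0 were called (median 0.0216), and Dnmt1, the maintenance DNA methyltransferase, gave -0.10 ± 0.08. No gene of these 4 lists had an unadjusted p under 0.05.

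Metabolic, stress and cell type lists held no call either. Of 25 cholesterol genes, 25 were lower in KO liver (median -0.469) and 23 were higher in KO brain (median 0.125), and the shared median was -0.182 with 0 called. Fdps gave -0.65 ± 0.25, with -0.99 in liver and -0.31 in brain. Among 18 interferon and antigen presentation genes 0 were called, and the 3 with the smallest p were the class II genes Cd74 (0.53 ± 0.16, limma adjusted p 0.945), H2-Aa (0.64 ± 0.20) and H2-Ab1 (0.49 ± 0.17). Of 17 tested imprinted genes 0 were called (median 0.125), led by Cdkn1c (0.54 ± 0.17), Peg10 (0.47 ± 0.19) and Sgce (0.39 ± 0.16), each with a larger value in liver than in brain. The clock genes had a median of -0.00901 over 17 tested, with Per3 at -0.34 ± 0.13, Tef at -0.10 ± 0.06 and Ciart at -0.18 ± 0.11.

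Immediate early and glucocorticoid genes had a median of -0.00825 over 17 tested, and Egr1 gave 0.50 ± 0.45, with 0.99 in liver and 0.00107 in brain. Heat shock and p53 target genes had a median of 0.0338 over 14, with Sesn2 at 0.29 ± 0.12 and Hspa1a at 0.58 ± 0.41. The 77 tested ribosomal protein genes had a median of -0.0186 and 0 calls, beside the fall of Rps4l. The sign of that median turned to 0.00584 without the 3 brain libraries named above. Of 39 Hox genes 3 were tested and not called, all with positive values, Hoxa5 at 0.93 ± 0.59. The 26 mitochondrially encoded genes had a median of 0.0136, which turned to -0.00673 when libraries were scaled to their totals, and mt-Atp6 gave 0.85 ± 0.29.

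Among cell type markers 0 were called. Hepatocyte markers had a median of 0.279 over 8 tested, all 8 with values above 0. Alb, serum albumin, gave 1.05 ± 0.99, with 0.01 in liver and 2.08 in brain, where it measured 0.0154, 0.0472 and 9.55 FPKM in WT and 0.410, 4.24 and 5.47 in KO, with overlapping groups. Blood cell markers had a median of 0.261 over 8 tested, with Alas2 at 0.33 ± 0.15. Oligodendrocyte and astrocyte markers had a median of 0.163 over 6 tested, with Aqp4 at 0.49 ± 0.21 and Mbp, myelin basic protein, at 0.19 ± 0.10. Medians were 0.0627 for macrophage and microglia, -0.0216 for endothelial and -0.0255 for neuron markers, with no call in any. Without the 3 brain libraries with liver transcripts the medians were 0.179 for hepatocyte, 0.129 for blood cell, 0.0961 for macrophage and microglia, -0.0742 for endothelial and -0.013 for neuron markers. The same change gave -0.311 for cholesterol, 0.0221 for PRC1.6, 0.0115 for methylation, -0.0317 for clock, -0.00315 for immediate early and glucocorticoid and 0.0428 for mitochondrially encoded genes.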

How the data were processed

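Poly-A RNA libraries from liver, brain and testis were used. Per the submitters' processing notes, HISAT2 2.0.5, featureCounts 1.5.0-p3, DESeq2 1.16.1 and the mm10 build were used. The authors deposited FPKM per gene; these were whole multiples of 1 step per library after multiplication by gene length (largest distance 0.000188 reads), so reads were recovered and summed to depth. The library size behind liver FPKM differs from that of brain, so FPKM is compared within a tissue.

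The 12 liver and brain libraries entered 1 limma fit (version 3.58.1, R 4.3.3) with terms for tissue and genotype and a trend of variance on mean level, on log2 values of FPKM after adding 0.1. The planned count test was not used because the files hold FPKM. Alternatives changed the pseudocount, filter, scaling, weights, blocks and libraries. The fit was also run on simulated counts with the same spread setting for all genes and the same change in both tissues. Liver libraries differed more within groups than brain libraries, so the simulation does not describe the accuracy of the fit here. Remaining steps used Python 3.11.15.

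Genes are named by a rule: Pcgf6, all called genes, up to 3 members per list with the smallest p, and genes within 2 Mb of Pcgf6 with p under 0.05; others were chosen after their values were seen. Members and lists were chosen with earlier results of these data known. Of the list symbols 1 was matched through a synonym.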

Additional observations from a re-analysis of the deposited data

How the results depend on the processing

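Mael, Slc25a31, Ide, Xlr4b and Rps4l were called in all 25 alternatives run, and Syce1 and Ddx4 in all 24 that tested them. 8030474K03Rik was called in 24 of 25, Xlr4c in 22 of 24, Gm4779 in 22 of 25 and Fgfbp3 in 14 of 24, and Pcgf6 in 0 of 25 (adjusted p 0.0621 to 0.998). No direction of these 12 genes turned. Against 8 genes up and 3 down, a filter of 50 reads gave 5 up; it tested 7 of the 11, and all 7 were called. Voom gave 5 down, and 6 with quality weights; both gave 12 up. Leaving out the 3 brain libraries with liver transcripts gave 5 up. The mean of the 2 tissue effects from the model with an interaction gave 12 up and 4 down. Leaving out 1 library at a time gave 8 to 10 up and 2 to 3 down. Fgfbp3 was not called at a pseudocount of 0.01 (0.0676) or with no filter (0.0637).

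The number in the title, shared by liver and brain, as a replicate block gave 8 up and 3 down and kept all 11 calls (consensus correlation 0.0547). Among the brain libraries of its own genotype, each of 6 liver libraries correlated best with its own number (0.0547 to 0.236). This is a hint from the data and not from the design. Values were centred within each group of 3 libraries, which ties these correlations to each other, and brain libraries of the other genotype were not compared. A replicate block on the order within genotype and tissue gave 8 up and 4 down, without Xlr4c (0.0583); pairs in that order correlated at 0.177 to 0.36 in liver and -0.138 to 0.281 in brain. The difference between tissues was called for 1 gene with a pseudocount of 1 against 0. Genes with few WT reads are limited by depth.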

Other observations

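Some genes that were not called, chosen after their values were seen, also kept WT and KO apart in both tissues. They are among the 42 higher genes (0.325%) and 33 lower genes (0.255%) given above, and this lack of overlap is no call. Zfp951, a zinc finger gene, measured 0.303, 0.650 and 0.355 FPKM in WT liver, 0.0673, 0.136 and 0.180 in KO liver, 0.305, 0.195 and 0.356 in WT brain and 0.0846, 0.0466 and 0.102 in KO brain. Its shared log2 fold change was -1.16 ± 0.20 (limma adjusted p 0.069). It was called in 4 of the alternatives.

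Ppia, which encodes cyclophilin A and is often used as a reference gene, and Gm10123 moved in opposite directions. Ppia gave -0.63 ± 0.11 (limma adjusted p 0.101): 154, 168 and 142 FPKM in WT liver, 110, 80.2 and 103 in KO liver, 103, 141 and 117 in WT brain and 96.9, 63.8 and 79.9 in KO brain. Gm10123 gave 1.28 ± 0.25 (limma adjusted p 0.195): 224, 126 and 209 FPKM in WT liver, 381, 566 and 447 in KO liver, 242, 78.3 and 138 in WT brain and 244, 444 and 300 in KO brain. For Gm10123 in brain, the lowest KO library (244 FPKM) lay just above the highest WT library (242 FPKM). KO brain 5 was the lowest brain library for Ppia and the highest for Gm10123, and KO liver 5 likewise in liver.

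C1qtnf4, a secreted protein of the C1q and TNF related family, had the smallest p for a difference between tissues. It measured 0.175, 0.203 and 0.572 FPKM in WT liver and 2.22, 2.90 and 2.28 in KO liver, with no overlap, against 92.5, 80.8 and 89.5 in WT brain and 88.7, 91.7 and 89.9 in KO brain, where the groups overlapped. The brain minus liver difference was -2.69 ± 0.37 (limma adjusted p 0.160, or 0.031 with a pseudocount of 1 and 0.0526 or more with voom).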
